A study of Mus musculus with 8 samples.

Results

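The genes described here are the solute carriers of families Slc3, Slc5, Slc6, Slc7, Slc13, Slc17, Slc22, Slc34 and Slc47, which move amino acids, sugars, phosphate, dicarboxylates and organic anions and cations across membranes. They were chosen by name alone: every gene of the count table whose symbol gives 1 of these 9 family numbers followed by a member number was taken, so that no measured value entered the rule, although the families themselves were picked with earlier results of these data known. The rule found 90 of the 30890 genes listed, and 258 other Slc genes remained outside it. Whole kidneys of C57BL/6 mouse embryos at embryonic stage E12.5 were cultured for 72 hours on a floating filter membrane with 5 µM CHIR99021, an inhibitor of the kinase GSK-3β that activates Wnt/β-catenin signaling (4 samples), or with 0.1% DMSO, its solvent (4 samples). According to the study's methods the left kidney of each embryo went to DMSO and the right to CHIR99021, so that side and treatment cannot be told apart, and kidneys whose typical Wnt target genes did not respond were excluded. The labels give replicate numbers but do not name embryos. The same replicate number is taken here to mark 2 kidneys of 1 embryo, which is an assumption, and each such pair is called a pair below.

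Epithelial cells of the proximal tubule take back amino acids, glucose, phosphate and carboxylates from the filtrate through sodium-coupled carriers in the apical membrane, and they secrete drugs and metabolites by taking up organic anions and cations at the basolateral side and releasing them into the urine. Most of these carriers are switched on late, as the tubule matures. Other members of the same families serve all growing cells: the Slc7 light chains, which only reach the surface as a complex with the heavy chain Slc3a2 or Slc3a1, exchange amino acids, and Slc6 carriers bring in creatine, taurine, glycine and neurotransmitters.

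Library totals lay between 14599082 and 17751992 counts, and the 90 carriers took 0.138% to 0.157% of the counts of a DMSO library and 0.167% to 0.196% of a CHIR99021 library. This share leans on Slc7a8, which alone had 1918 counts over the DMSO group and 21700 over the CHIR99021 group. Marker genes of the kidney's own compartments were present in every library: 8 nephron progenitor genes summed to 1247 to 1510 CPM (counts scaled to library depth) after DMSO and 479 to 572 after CHIR99021, and 8 ureteric epithelium genes summed to 384 to 420 and 178 to 195 CPM. In contrast, 7 renal stroma genes summed to 2212 to 3058 CPM after DMSO and 4858 to 5849 CPM after CHIR99021, though 2 were called higher and 2 lower. The part of these shifts in the carrier values was not tested. A gene was tested only where enough samples reached about 0.625 CPM, and 51 of the 90 carriers passed this filter, 33 of them in all 8 samples. Of the others that passed, 7 reached that level in all 4 DMSO and no CHIR99021 sample, and 1 in all 4 CHIR99021 and no DMSO sample; these genes could only pass by differing. DMSO replicates 2 and 4 stood apart in RNA of another tissue: 9 hepatocyte markers summed to 1341 and 946 CPM there, to 58.9 and 8.08 CPM in DMSO replicates 1 and 3, and to 1.25 to 7.80 CPM after CHIR99021. All 3 tested hepatocyte markers were lower after CHIR99021, and their part in the results was not tested. Without these 2 libraries 16 of 51 tested carriers were lower and 8 higher, beside 3492 and 3119 of all 17292 genes tested in that fit.

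More of the measured carriers were lower than higher after CHIR99021. At an adjusted p under 0.05, 21 of the 51 tested carriers were lower (41.2%, against 25.0% of all 16723 tested genes) and 10 were higher (19.6%, against 23.7%). With a change of more than 1 log2 unit required as well, there were 15 lower carriers (29.4%, against 9.16% of all tested genes) and 3 higher carriers (5.88%, against 4.65%). Of these 15, 7 had reached the filter level in DMSO samples alone: Slc5a1, Slc5a8, Slc5a9, Slc7a10, Slc22a12, Slc22a19 and Slc34a1. Their adjusted p values, given below, come after that selection. A second count left out the 8 carriers that reached the level in all samples of 1 group and none of the other, and such genes among all genes. Then 14 of 43 carriers were lower (32.6%, against 24%) and 9 higher (20.9%, against 23.5%). Past both thresholds 8 were lower (18.6%, against 7.81%) and 2 higher (4.65%, against 4.07%). This count still held Slc5a7, Slc6a18, Slc13a3 and Slc17a4, which reached the level in all 4 DMSO samples but only some treated samples. It therefore removed only part of what the filter favors. The median log2 fold change of the tested carriers was -0.32, while that of all tested genes was -0.003. Among the 207 tested Slc genes of other families, 52 were lower (25.1%), 59 were higher (28.5%) and the median was -0.01. The CPM values of the groups did not overlap in 28 of the 51 tested carriers (54.9%, against 46.1% of all tested genes), of which 9 were higher (17.6%, against 22.7%) and 19 lower (37.3%, against 23.4%). Of the 31 called carriers 29 moved the same way in all 4 pairs, but they were called on these same samples, so this is not separate support. Since RNA came from whole kidneys, fewer cells of a type and less RNA per cell cannot be told apart in any of these values.

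**Figure D1:**
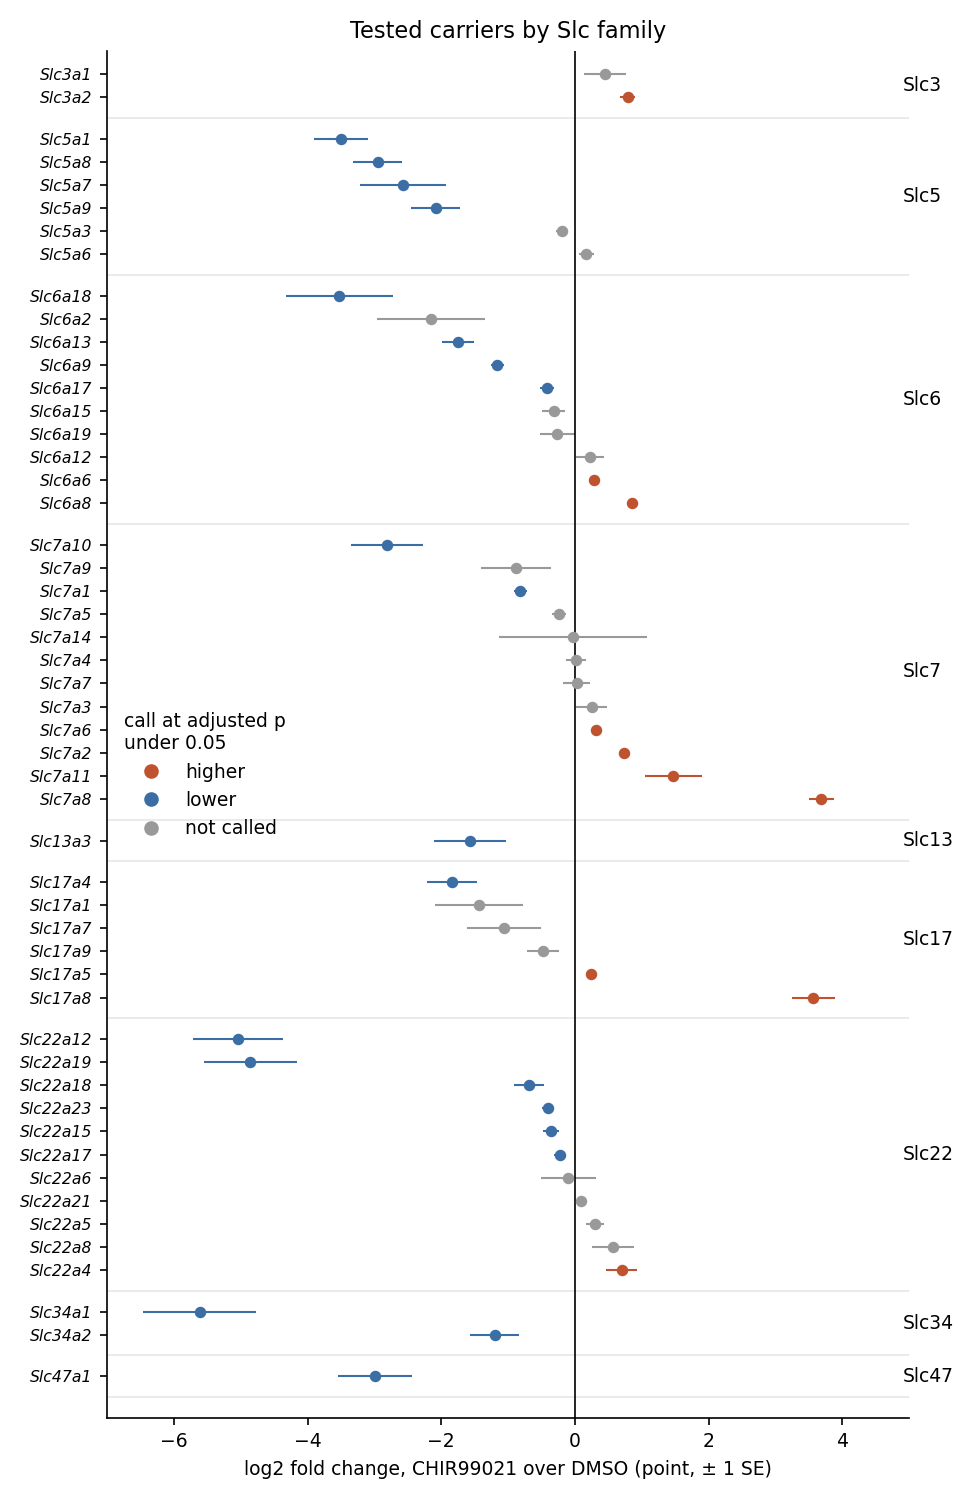
The log2 fold change of CHIR99021 over DMSO (x axis) is plotted for each of the 51 tested carriers (y axis), ordered by Slc family, with bars of 1 standard error; colors mark genes called higher, lower or not called at an adjusted p under 0.05. Slc34a1 lies at -5.61 and Slc7a8 at 3.68, the ends of the range.

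Counts by family are given for the fit without pairing, and most families hold too few tested members to be set against the shares of all genes. Both tested Slc34 carriers, the only tested Slc47 carrier and the only tested Slc13 carrier were lower. Slc5 had 4 lower and 0 higher of 6 tested members, Slc22 had 6 lower and 1 higher of 11, Slc6 had 4 lower and 2 higher of 10, and Slc17 had 1 lower and 2 higher of 6. In Slc7, 4 of 12 were higher and 2 lower, and in Slc3 the ubiquitous heavy chain Slc3a2 was higher and Slc3a1 was not called. With the pair as a block, Slc5 had 5 lower, Slc6 5 lower, Slc7 3 lower, Slc17 3 lower and 2 higher, and Slc22 2 higher, while the Slc13 carrier was not called. Summed as FPKM (fragments scaled to transcript length and library depth), which allows levels to be added between genes of different length, Slc7 went from 89.5 ± 4.67 (SD, n = 4) to 164 ± 24.5 and Slc34 from 4.51 ± 2.02 to 0.475 ± 0.0532. The summed level of Slc6 was 57.5 ± 4.7 after DMSO and 60.3 ± 1.16 after CHIR99021, and the groups overlapped.

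**Figure D2:**
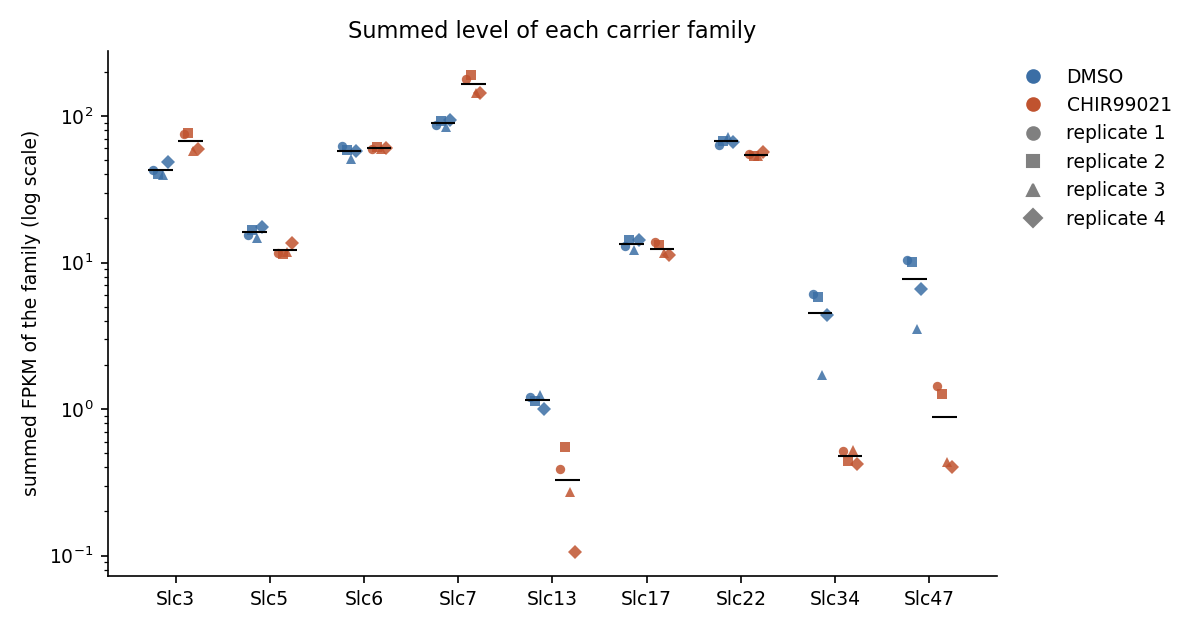
The FPKM values of all members of a family were summed in each sample (y axis, log scale) for the 9 families (x axis), with 1 symbol per replicate number and a bar at the mean of each group. Slc3 and Slc7 lie higher in all 4 CHIR99021 samples than in any DMSO sample, while Slc5, Slc13, Slc22, Slc34 and Slc47 lie lower.

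The steepest fall among the tested carriers was that of Slc34a1, the sodium-phosphate cotransporter of the proximal tubule brush border (chromosome 13, 55398187 to 55415592, plus strand, GRCm38). It measured 24.9, 22.3, 3.57 and 12.2 CPM in DMSO replicates 1 to 4 and 0.499, 0.335, 0.0718 and 0.329 CPM in CHIR99021 replicates 1 to 4. All 4 treated kidneys were far below every DMSO kidney, although DMSO replicate 3 held much less of this transcript than the other controls. The fitted change was a 48.9-fold fall (log2 fold change -5.61 ± 0.84 SE, adjusted p = 0.00123). Slc34a1 reached the filter level in DMSO samples alone, so it could only enter the test by differing. Of its exon bases, 11.7% are also annotated to Pfn3 on the opposite strand. Slc34a2, a related phosphate carrier best known from lung and intestine, read 1.95, 3.94, 4.04 and 7.85 CPM after DMSO and 2.06, 1.54, 2.22 and 1.84 CPM after CHIR99021. Its fall (log2 fold change -1.2 ± 0.36, adjusted p = 0.0184) rested on pairs 2 to 4, since pair 1 was slightly higher after CHIR99021 and the groups overlapped. Without CHIR99021 replicate 2 the adjusted p of Slc34a2 was 0.055, without pair 3 it was 0.0561, and without DMSO replicates 2 and 4 the log2 fold change was -0.64 (adjusted p = 0.143). The call was also lost with limma-voom and on log2 of count plus 1. Slc34a3, the other phosphate cotransporter of the renal brush border, was hardly expressed, with 12 counts over the DMSO group and 7 over the CHIR99021 group.

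Of the sugar and monocarboxylate carriers of Slc5, Slc5a1, Slc5a8 and Slc5a9 fell. Slc5a1, the sodium-glucose cotransporter of gut and late proximal tubule (chromosome 5, 33104219 to 33162870, plus strand), read 2.22, 3.08, 1.58 and 1.64 CPM after DMSO and 0.312, 0.134, 0.0718 and 0.197 CPM after CHIR99021. No treated kidney came near a control, and the fall was 11.3-fold (log2 fold change -3.50 ± 0.40, adjusted p = 1.39e-05). Slc5a8, which takes up lactate and other monocarboxylates with sodium, stood at 1.57, 1.66, 1.64 and 2.55 CPM against 0.312, 0.268, 0.0718 and 0.263 CPM and fell 7.72-fold (adjusted p = 2.49e-05), with DMSO replicate 4 above the tightly grouped other controls. Slc5a9, a mannose and glucose carrier, went from 1.72 ± 0.65 to 0.400 ± 0.12 CPM (log2 fold change -2.09 ± 0.36, adjusted p = 0.000403). The glucose carrier Slc5a2 and the lactate carrier Slc5a12, which mark mature tubule segments, were too low to test: Slc5a2 had 8 counts over the DMSO group and 12 over the CHIR99021 group, and Slc5a12 had 7 and 10.

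Other Slc5 members serve cells outside the brush border. Slc5a7, the choline carrier of cholinergic neurons, read 2.54, 1.77, 2.52 and 2.03 CPM after DMSO and 0.187, 1.14, 0.144 and 0 CPM after CHIR99021. CHIR99021 replicate 2 stood apart from its group, but still lay below every control. The log2 fold change was -2.57 ± 0.64 (adjusted p = 0.0076), it was -4.23 without CHIR99021 replicate 2, and the call was lost without pair 3 (adjusted p = 0.0577). The summed CPM of 10 neuron markers was 176 in CHIR99021 replicate 2 and 27.7 to 41.7 in the other treated samples; 1 of its 9 tested genes was lower and 0 were higher, and its part in the result was not tested. Slc5a3, the sodium/myo-inositol carrier that cells use against osmotic stress, was the most abundant of the family, at 11.3 ± 1.23 FPKM after DMSO and 9.05 ± 1.13 FPKM after CHIR99021. It was not called without pairing (log2 fold change -0.19, adjusted p = 0.117) but was lower in all 4 pairs and passed with the pair as a block (adjusted p = 0.0111) and without CHIR99021 replicate 4 (0.0178). It was also called lower on FPKM plus 1 and plus 0.1. The vitamin carrier Slc5a6 had a log2 fold change of 0.17 (adjusted p = 0.251) and was called higher only on log2 of count plus 1.

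**Figure D3:**
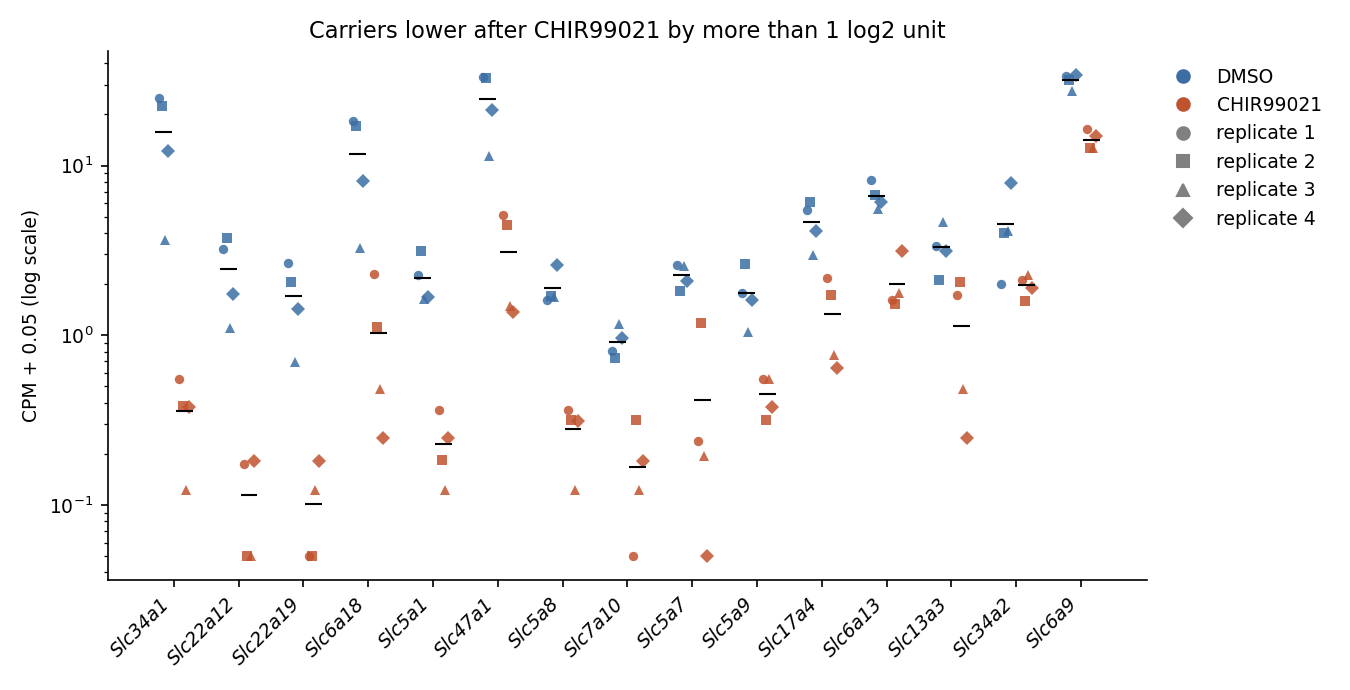
CPM plus 0.05 (y axis, log scale) is plotted by sample for the 15 carriers that were lower by more than 1 log2 unit (x axis), with 1 symbol per replicate number and a bar at the mean of each group. DMSO replicate 3 is the lowest control in 10 of the 15, and Slc34a2 is the only carrier whose groups overlap.

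The apical amino-acid carriers of Slc6 differed between neighboring genes. Slc6a18, a luminal carrier of neutral amino acids such as glycine (chromosome 13, 73661752 to 73678023, minus strand), read 18.2, 17, 3.22 and 8.05 CPM after DMSO and 2.25, 1.07, 0.431 and 0.197 CPM after CHIR99021. Each treated kidney lay below every control, and the fall was 11.5-fold (log2 fold change -3.52 ± 0.80, adjusted p = 0.00912). Without CHIR99021 replicate 1 the log2 fold change was -4.34. Its neighbor Slc6a19, the main luminal carrier of neutral amino acids in the proximal tubule, lies directly beside it and read 1.95, 2.00, 1.46 and 1.90 CPM against 2.31, 1.14, 1.29 and 1.31 CPM. The groups overlapped, 3 of 4 pairs were lower, and Slc6a19 was not called (log2 fold change -0.26 ± 0.26, adjusted p = 0.44).

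The osmolyte and γ-aminobutyric acid (GABA) carriers behaved in a similarly unequal way. Slc6a13, a GABA and taurine carrier of tubule and meninges, went from 8.17, 6.68, 5.51 and 6.02 CPM to 1.56, 1.47, 1.72 and 3.09 CPM, so that no sample overlapped, with a 3.36-fold fall (log2 fold change -1.75 ± 0.24, adjusted p = 5.89e-05). Slc6a12, the betaine carrier next to it on chromosome 6, read 2.49, 4.00, 3.34 and 4.25 CPM against 2.93, 4.35, 4.81 and 4.34 CPM and was not called (log2 fold change 0.22 ± 0.21, adjusted p = 0.419). Slc6a6, the taurine carrier, was the most abundant of the family and went from 25.3 ± 2.79 to 28.1 ± 1.35 FPKM. On CPM its groups did not overlap and the small rise passed the test (log2 fold change 0.28 ± 0.08, adjusted p = 0.00805), but it did not pass on FPKM plus 1 (adjusted p = 0.142), on FPKM plus 0.1 (0.169), on log2 of count plus 1 (0.155) or without DMSO replicates 2 and 4 (0.0681).

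Slc6a8, the creatine carrier, gave the most even rise: 70.6, 72.2, 78.1 and 79.6 CPM after DMSO and 131, 137, 133 and 141 CPM after CHIR99021. The spread within either group was small, and the rise was 1.80-fold (log2 fold change 0.85 ± 0.05, adjusted p = 5.41e-08). Slc6a9, which clears glycine, went the other way, from 33.6, 31.7, 27.5 and 34.2 CPM to 16.4, 12.7, 12.6 and 14.9 CPM. Again no samples overlapped, and the fall was 2.24-fold (log2 fold change -1.16 ± 0.10, adjusted p = 1.42e-06). Of the exon bases of Slc6a9, 27.8% lie under Ccdc24 on the opposite strand.

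The noradrenaline carrier Slc6a2, found in sympathetic nerves, read 2.43, 6.97, 1.52 and 2.36 CPM after DMSO and 0.187, 1.74, 1.00 and 0.0657 CPM after CHIR99021. It is named, although outside the naming rule, because pair 2 was the highest in either group. Slc6a2 was not called without pairing (log2 fold change -2.16 ± 0.81, adjusted p = 0.0589) and was lower with the pair as a block (adjusted p = 0.00583) and without CHIR99021 replicate 2 (-3.02, adjusted p = 0.0254). It was also called lower with limma-voom and on FPKM plus 1 and plus 0.1. The 9 sympathetic and chromaffin markers summed to 51.8 and 57.0 CPM in the 2 kidneys of pair 2 and to between 8.30 and 28.6 CPM in the others; 1 of the 9 was lower, and their part in the result was not tested. The serotonin carrier Slc6a4, too low to test, had 63 counts over the DMSO group and 13 over the CHIR99021 group.

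Among the exchangers of Slc7, the L-type light chain Slc7a8, which passes large and small neutral amino acids in exchange, showed the largest rise among the tested carriers (chromosome 14, 54722216 to 54781886, minus strand). It read 28.2, 30.9, 27.6 and 25.1 CPM after DMSO and 369, 482, 283 and 306 CPM after CHIR99021. The lowest treated kidney thus held far more than the highest control, and the rise was 12.9-fold (log2 fold change 3.68 ± 0.19, adjusted p = 2.52e-06). Its partner, the heavy chain Slc3a2 (chromosome 19, 8706882 to 8723369, minus strand), rose 1.73-fold, from 144, 135, 131 and 161 CPM to 278, 282, 210 and 215 CPM (log2 fold change 0.79 ± 0.11, adjusted p = 0.000373), again with no overlap.

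Read per length, Slc7a8 moved from a minor light chain to the most abundant. In FPKM it was 7.25 ± 0.594 after DMSO and 84.9 ± 20.5 after CHIR99021, whereas Slc7a5, the L-type light chain of growing cells, was 29.6 ± 2.51 and 22.8 ± 3.44. Of the summed FPKM of the 6 light chains that pair with Slc3a2, Slc7a8 made 13 ± 1.24% after DMSO (range 11.2 to 13.9%) and 65.0 ± 5.01% after CHIR99021 (60.5 to 72.1%), while Slc7a5 made 52.9 ± 3.04% and 17.8 ± 2.99%. Light chains together reached 55.9 ± 2.35 FPKM beside 42.3 ± 3.91 FPKM of heavy chain in DMSO kidneys, and 130 ± 21.9 beside 66.4 ± 10.2 in treated kidneys. The ratio of light to heavy chain RNA was 1.33 ± 0.10 and 1.95 ± 0.092, with ranges of 1.22 to 1.44 and 1.85 to 2.07 that did not overlap. These shares are descriptions of RNA, and no test was run on them.

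**Figure D4:**
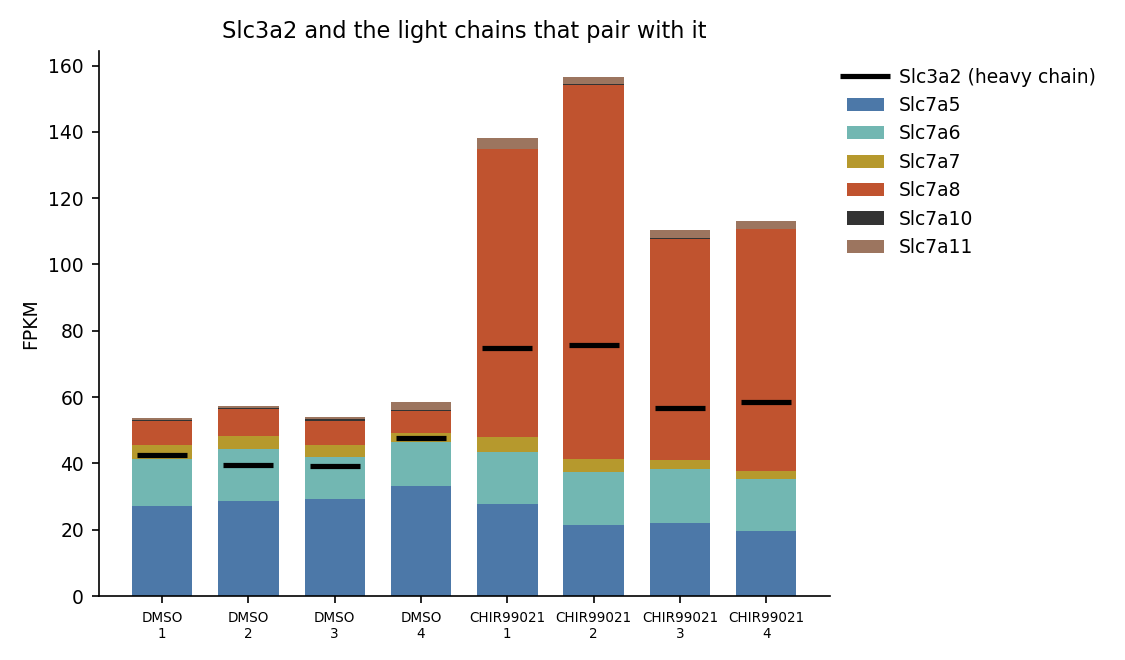
Stacked bars give the FPKM (y axis) of the 6 Slc7 light chains that pair with Slc3a2 in each of the 8 samples (x axis), and the black mark gives the FPKM of Slc3a2 in the same sample. The bars reach 53.7 to 58.4 FPKM after DMSO and 110 to 157 FPKM after CHIR99021, and the added height is mostly Slc7a8.

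Most other light chains moved little. Slc7a5 read 96.8, 103, 103 and 117 CPM against 108, 84.3, 86.1 and 76.1 CPM, with pair 1 higher and the others lower, and was not called (log2 fold change -0.24 ± 0.10, adjusted p = 0.0764). It was called lower without CHIR99021 replicate 1 (-0.35, adjusted p = 0.00193), with upper-quartile scaling (adjusted p = 0.0359) and on FPKM plus 1 (0.0143) or plus 0.1 (0.0221). Slc7a6, which exchanges cationic for neutral amino acids, went from 61.1 ± 5.29 to 76.2 ± 1.32 CPM without overlap (log2 fold change 0.32 ± 0.06, adjusted p = 0.000903). Slc7a7, its basolateral relative in the tubule, was 11.4 ± 1.99 and 11.6 ± 3.40 CPM and its log2 fold change of 0.02 (adjusted p = 0.933) turned negative with upper-quartile scaling and on FPKM. Slc7a10, a carrier of small neutral amino acids and D-serine, was near the limit of detection and fell from 0.868 ± 0.19 to 0.118 ± 0.114 CPM (log2 fold change -2.81 ± 0.54, adjusted p = 0.000789; -3.55 without CHIR99021 replicate 2).

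Slc7a11, the cystine/glutamate exchanger that supplies cysteine for glutathione (chromosome 3, 49892526 to 50443614, minus strand), read 8.82, 9.19, 9.02 and 28.9 CPM after DMSO and 44.6, 34.2, 37.0 and 37.3 CPM after CHIR99021. The 4 treated kidneys lay close together, and DMSO replicate 4 alone lay between the groups. Over all samples the rise was 2.77-fold (log2 fold change 1.47 ± 0.43, adjusted p = 0.0273). Without DMSO replicate 4 the log2 fold change was 2.08 (adjusted p = 3.22e-08), and without any other single sample the call was lost, with adjusted p between 0.0531 and 0.069. Without pair 3 the adjusted p was 0.118, and the call was also lost with no expression filter (0.0519). DMSO replicate 4 also held the fewest macrophage transcripts of the controls, 143 CPM over 12 markers against 525 to 611 CPM, and 11 of the 11 tested markers were lower after CHIR99021; their part in the result was not tested.

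To set regulatory sequence beside these values, the 120 bases before the RefSeq start of Slc7a11 are given here (RefSeq, GRCm38.p6, chr3:50443614-50443733, minus strand), chosen with its values in view. Capitals mark the letters TGATGNAA on either strand, an element bound by the stress factor ATF4.
Slc7a11: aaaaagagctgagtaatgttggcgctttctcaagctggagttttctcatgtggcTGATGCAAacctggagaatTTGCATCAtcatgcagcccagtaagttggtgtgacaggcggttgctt

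The letters occurred in both orientations, 66 and 47 bases before the start of Slc7a11. RefSeq promoters were at hand for 67 of the 90 carriers, some with several starts, which gave 92 promoters. In the 250 bases before the start, TGATGNAA on either strand was found in 5 of these 92, against 3.45% of all 32851 promoters, and CTTTGA, the core letters bound by the TCF/LEF partners of β-catenin, in 21 of 92, against 13.8%. These matches are descriptions of letters and not of binding.

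The cationic amino-acid carriers, which need no heavy chain, moved in opposite directions. Slc7a1, the general arginine and lysine carrier, fell from 133, 144, 117 and 148 CPM to 89.4, 74.5, 77.5 and 65.6 CPM (log2 fold change -0.82 ± 0.10, adjusted p = 5.1e-05). Slc7a2, an arginine carrier that is inducible in many cells, rose from 115, 126, 120 and 128 CPM to 219, 219, 199 and 178 CPM (log2 fold change 0.74 ± 0.07, adjusted p = 1.88e-06). Neither gene had overlapping groups, and the changes were of similar size. In FPKM, Slc7a1 went from 12.3 ± 1.18 to 6.34 ± 0.787 and Slc7a2 from 14.0 ± 0.68 to 21.2 ± 1.93, so that their mean levels lay close together in DMSO kidneys and far apart in treated ones.

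The cystine pair of the proximal tubule gave weaker signals. Slc3a1, the heavy chain whose loss causes cystinuria, read 1.19, 1.83, 0.586 and 0.982 CPM against 1.25, 1.74, 1.79 and 1.51 CPM and was not called (log2 fold change 0.45 ± 0.32, adjusted p = 0.27), and 26.5% of its exon bases lie under Prepl on the opposite strand. Its light chain Slc7a9 read 3.19, 3.77, 0.82 and 1.90 CPM against 2.25, 1.67, 0.718 and 0.592 CPM. It was lower in all 4 pairs, and was not called without pairing (log2 fold change -0.88 ± 0.52, adjusted p = 0.196) but was with the pair as a block (adjusted p = 0.0172) and without DMSO replicate 3 (0.0454). Slc7a13, the other light chain of Slc3a1, was untested at 9 and 2 counts over the groups.

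**Figure D5:**
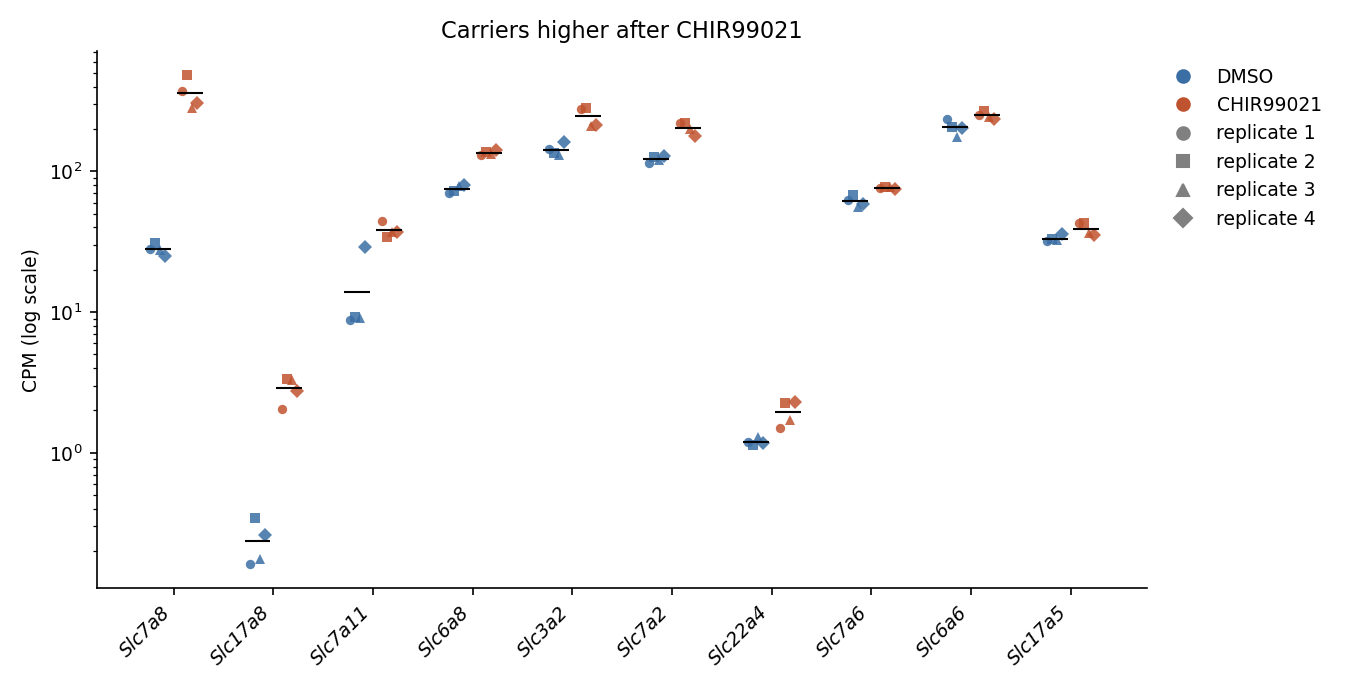
CPM (y axis, log scale) is plotted by sample for the 10 carriers called higher (x axis), with 1 symbol per replicate number and a bar at the mean of each group. Slc7a8 and Slc17a8 show the widest separation, and Slc7a11 in DMSO replicate 4, at 28.9 CPM, lies near the treated samples.

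The carriers of dicarboxylates and sulfate in Slc13 were mostly too low to test. Slc13a3, which brings succinate and other dicarboxylates into tubule cells from the blood side, read 3.30, 2.06, 4.57 and 3.08 CPM after DMSO and 1.68, 2.01, 0.431 and 0.197 CPM after CHIR99021. The groups did not overlap, but DMSO replicate 2 and CHIR99021 replicate 2 nearly met. The fall (log2 fold change -1.57 ± 0.54, adjusted p = 0.038) was not called with the pair as a block (0.0757), without DMSO replicate 1 (0.0721), 3 (0.0918) or 4 (0.0643), without CHIR99021 replicate 3 (0.0896), without pair 3 (0.172) or without DMSO replicates 2 and 4 (0.0607). The call was also lost with no expression filter and on log2 of count plus 1. Slc13a1, the sulfate carrier of the brush border, had 24, 40, 0 and 10 counts in the DMSO samples and 1, 0, 0 and 0 in the CHIR99021 samples, a ratio of 65.1 by group (exact 95% interval 11.3 to 2605, counting error only). Slc13a2, an apical citrate carrier, had 28 counts against 3, a ratio of 8.21 (2.54 to 42.2).

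In Slc17, which holds urate and phosphate carriers of the apical tubule and vesicular carriers of nerve endings, the directions were mixed. Slc17a8, a vesicular glutamate carrier, rose from 0.162, 0.343, 0.176 and 0.262 CPM to 2.06, 3.35, 3.30 and 2.76 CPM (log2 fold change 3.57 ± 0.32, adjusted p = 1.42e-06), and was the tested carrier that passed the filter in treated samples alone. Slc17a4, an organic anion carrier, fell from 5.41, 6.05, 2.93 and 4.06 CPM to 2.12, 1.67, 0.718 and 0.592 CPM (log2 fold change -1.84 ± 0.38, adjusted p = 0.00201). Its neighbor Slc17a1, a urate exporter of the brush border, read 3.84, 4.57, 0.82 and 2.36 CPM against 2.37, 0.736, 0.861 and 0.263 CPM, was lower in 3 of 4 pairs, and was called with the pair as a block (adjusted p = 0.0293), without DMSO replicate 3 (0.0282) and without CHIR99021 replicate 1 (0.0193), but not by edgeR over all samples without pairing (log2 fold change -1.44 ± 0.66, adjusted p = 0.106). DESeq2 called it lower over all samples. Slc17a5, the sialic acid carrier of lysosomes and the most abundant of the family, was 9.59 ± 0.517 and 10.3 ± 1.01 FPKM.

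The rise of Slc17a5 was small (log2 fold change 0.24 ± 0.08, adjusted p = 0.0242), with 1 of 4 pairs lower and overlapping groups. It was lost with upper-quartile scaling (0.0582), on FPKM plus 1 (0.337) or plus 0.1 (0.36), and when DMSO replicate 1 (0.0603), DMSO replicate 2 (0.0539), DMSO replicate 3 (0.0539), CHIR99021 replicate 1 (0.0703) or CHIR99021 replicate 2 (0.0718) was left out. The nucleotide carrier Slc17a9 was lower in all 4 pairs and passed with the pair as a block (adjusted p = 0.0411) or without DMSO replicate 1 (0.0356), but not otherwise (log2 fold change -0.48 ± 0.24, adjusted p = 0.115).

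Among the organic anion carriers of Slc22, Slc22a12 and Slc22a19 fell. Slc22a12, the apical urate exchanger, read 3.19, 3.71, 1.05 and 1.70 CPM after DMSO and 0.125, 0, 0 and 0.131 CPM after CHIR99021. It was all but absent from treated kidneys, a 32.8-fold fall (log2 fold change -5.04 ± 0.67, adjusted p = 7.26e-05), and 30.1% of its exon bases lie under Nrxn2 on the opposite strand. Slc22a19, an organic anion exchanger, had 115 counts over the DMSO group and 3 over the CHIR99021 group, a ratio of 33.7 (exact 95% interval 11.2 to 166, counting error only; adjusted p = 0.000106). Its fitted log2 fold change was -4.86, and -5.79 without CHIR99021 replicate 4.

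By contrast, the basolateral uptake carriers of organic anions were not called. Slc22a6 read 4.76, 4.05, 1.17 and 2.22 CPM against 4.49, 2.14, 2.22 and 2.56 CPM, with 2 pairs higher and 2 lower and a log2 fold change of -0.10 ± 0.41 (adjusted p = 0.867) whose sign depended on the samples used. Slc22a8, its neighbor, read 5.84, 8.39, 2.64 and 4.19 CPM against 10.5, 6.29, 6.89 and 7.69 CPM, higher in 3 of 4 pairs (log2 fold change 0.57 ± 0.32, adjusted p = 0.167), and it was called higher without DMSO replicate 2 (adjusted p = 0.0204). These neighbors on chromosome 19 are known for the uptake of drugs and urate precursors from blood, and the depth gave them 174 to 475 counts per group. With standard errors of this size, changes in either direction could have gone unseen in Slc22a6.

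Organic cations leave tubule cells through Slc47a1, the apical proton-coupled extruder (chromosome 11, 61343401 to 61378345, minus strand). It read 33.1, 32.8, 11.4 and 21.1 CPM after DMSO and 5.05, 4.42, 1.44 and 1.31 CPM after CHIR99021. The lowest control, again replicate 3, stayed above the highest treated kidney, and the fall was 7.96-fold (log2 fold change -2.99 ± 0.55, adjusted p = 0.00342). Slc22a2, a basolateral uptake carrier of organic cations, was below the filter, with 18 and 3 counts by group, a ratio of 5.28 (1.54 to 28.0).

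The carnitine carriers on chromosome 11 rose or were not called. Slc22a4, which takes up ergothioneine, went from 1.19, 1.14, 1.29 and 1.18 CPM to 1.50, 2.28, 1.72 and 2.30 CPM without overlap (log2 fold change 0.70 ± 0.23, adjusted p = 0.024). At this low depth the call was lost without DMSO replicate 1 (0.0534), 2 (0.0608) or 4 (0.0516), without CHIR99021 replicate 2 (0.0705) or 4 (0.0725), without DMSO replicates 2 and 4 (0.134), with DESeq2 (0.0722) and with no expression filter (0.0587). Slc22a5, the carnitine carrier itself, was higher in all 4 pairs (log2 fold change 0.30, adjusted p = 0.0861) and was called with the pair as a block (adjusted p = 0.0209), without CHIR99021 replicate 3 (0.0336) and without CHIR99021 replicate 4 (0.0286). Slc22a5 and its neighbor Slc22a21 share 26.3% and 22% of their 50-base stretches with other genes, chiefly each other, so their counts are uncertain.

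Slc22a17, a receptor for the iron-binding protein lipocalin-2, was the most abundant of its family, at 44.0 ± 5.50 FPKM after DMSO and 34.2 ± 2.68 FPKM after CHIR99021. The fall was small (log2 fold change -0.23 ± 0.08, adjusted p = 0.0351), lower in all 4 pairs with overlapping groups, and its adjusted p was 0.0864 without DMSO replicate 3, 0.0673 without DMSO replicate 4, 0.1 without CHIR99021 replicate 1, 0.0919 without replicate 2, 0.0631 without replicate 3, 0.116 without pair 3 and 0.0709 without DMSO replicates 2 and 4. Slc22a18, an imprinted gene with a cation carrier fold, fell from 2.79 ± 0.278 to 1.72 ± 0.422 CPM (log2 fold change -0.69 ± 0.22, adjusted p = 0.0204). Significance of Slc22a18 was lost without DMSO replicate 2 (0.0605), without CHIR99021 replicate 2 (0.057), without pair 3 (0.0577), without DMSO replicates 2 and 4 (0.131) and on log2 of count plus 1 (0.135).

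The remaining tested carriers changed little or varied widely. Slc6a17, a vesicular carrier of neutral amino acids in neurons, was lower without overlap (log2 fold change -0.42 ± 0.10, adjusted p = 0.00453), as were Slc22a23 (-0.41 ± 0.09, adjusted p = 0.00206) and Slc22a15 (-0.36 ± 0.12, adjusted p = 0.0233). Significance of Slc22a15 was lost without DMSO replicate 2 (0.0645), CHIR99021 replicate 4 (0.0692), pair 3 (0.0768) or DMSO replicates 2 and 4 (0.148), with no expression filter (0.0675) and on log2 of count plus 1 (0.0914). Slc6a15 (-0.32), Slc7a3 (0.25), Slc7a4 (0.01), Slc17a7 (-1.07) and Slc22a21 (0.09) were not called, though Slc6a15 was without DMSO replicate 3 (adjusted p = 0.0471) and on FPKM plus 0.1, and Slc17a7 was without CHIR99021 replicate 4 (0.0421). Slc7a14 was high in pair 2 alone, at 4.05 and 4.82 CPM against 0.187 to 0.986 CPM in the other kidneys, and its log2 fold change was -0.03 ± 1.10.

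Below the filter lay 39 carriers, of which 25 did not reach 10 counts in any sample. Mean CPM was lower after CHIR99021 in 29 of the 39 and higher in 10. The same share over all untested genes is not given here, so this is not read as a trait of the carriers. A fit without the filter called 11 of them lower and 1 higher, where that fit called 13.9% of all genes lower and 13.6% higher. DESeq2 gave some of the 39, such as Slc22a27, no adjusted p. It called 9 lower and 1 higher of the others, and over all genes 4255 lower and 3974 higher. These counts over all genes include well-counted genes and are no measure for genes as low as these 39. The 1 higher was Slc7a15, with 3 counts over the DMSO group and 20 over the CHIR99021 group, a ratio of 7.58 (exact 95% interval 2.25 to 39.8). 6 carriers that had counts in DMSO had 0 in all treated samples. For these a floor of 3 counts was set in place of the whole treated group. The ratio to that floor was 5.86 for Slc7a12, with 20 counts in DMSO, 5.28 for Slc22a29 with 18 and 3.22 for Slc22a13 with 11. Counting error in the DMSO counts was left out, so these are not lower limits of the fall. Slc7a12 had 5, 12, 0 and 3 counts in DMSO replicates 1 to 4. Slc22a27 and Slc22a29 share 29.9% and 28.7% of their 50-base stretches with other genes, Slc22a28 53.9% and Slc22a30 34.2%, chiefly in these 2 pairs, and Slc22a13 shares 36.0%, mostly with a pseudogene, so that their reads cannot be divided with certainty.

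Some neighboring carriers shared a direction and others did not. Of the 90 genes, 32 lay within 100000 bases of another, in 11 clusters. In the cluster Slc22a8, Slc22a6 and Slc3a2 on chromosome 19 only Slc3a2 was called, in Slc6a3, Slc6a18 and Slc6a19 only Slc6a18, in Slc6a13 and Slc6a12 only Slc6a13, and in Slc22a5, Slc22a21 and Slc22a4 only Slc22a4. Other clusters had lower counts throughout as group sums, which are raw, not scaled for depth, and in many of these genes only a few counts. On chromosome 19, Slc22a19 had 115 against 3 counts, Slc22a26 2 against 0, Slc22a27 5 against 0, Slc22a28 16 against 2 and Slc22a29 18 against 0, and on chromosome 11 Slc47a1 had 1702 against 187 and Slc47a2 13 against 4. The urate and phosphate cluster on chromosome 13 was also lower throughout in its group sums, with 20 against 8 for Slc17a2, 64 against 9 for Slc17a3, 201 against 65 for Slc17a1 and 318 against 78 for Slc17a4. Of these only Slc17a1 and Slc17a4 were tested and only Slc17a4 was called without pairing. Not every pair was lower: Slc47a2 had 0 counts in DMSO replicate 3 and 1 in CHIR99021 replicate 3. Slc17a2 had 4 in DMSO replicate 1 and 7 in CHIR99021 replicate 1.

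How far the controls themselves varied depended on the carrier. DMSO replicate 3 was the lowest control for 26 of the 51 tested carriers and for 10 of the 15 that fell by more than 1 log2 unit. The same library held the least RNA of 12 proximal tubule markers, 128 CPM against 199 to 322 CPM in the other controls and 86.7 to 133 CPM after CHIR99021. Of the 9 tested markers 6 were lower (median log2 fold change -1.40) and 0 higher, while Aqp1 and Gatm were not called (0.89 and 0.36, adjusted p = 0.0664 and 0.543). Cyp2e1, a marker of mature tubule, was at 0 in all treated samples and at 0.0164 CPM on average in DMSO samples. The part of these markers in the fall of Slc34a1, Slc47a1 and Slc6a18 was not tested. Without both kidneys of pair 3 the log2 fold changes were -5.65 for Slc34a1, -3.01 for Slc47a1 and -3.61 for Slc6a18, close to those over all samples.

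Of 11 tested genes in a list of carrier partners and scaffolds 9 were lower and 1 higher (median log2 fold change -1.63), where 25.0% of all tested genes were lower and 23.7% higher. That list is broader than the partners of the families described here, since it also holds Kl, Fgfr1, Emb and Bsg. Tmem27, an apical trafficking partner of Slc6a18 and Slc6a19, went from 15.1 ± 4.38 to 4.52 ± 2.34 CPM (log2 fold change -1.73 ± 0.38). Slc9a3r1, the scaffold that holds Slc34a1 at the brush border, went from 55.3 ± 4.38 to 17.9 ± 2.61 CPM (-1.63 ± 0.10), and ezrin, Ezr, from 306 ± 16.2 to 147 ± 5.06 CPM (-1.05 ± 0.05). Bsg, the partner of monocarboxylate carriers, was the higher one (0.41 ± 0.07).

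Of 10 tested transcription factors and regulators known to govern tubule carriers 6 were lower and 1 was higher (median log2 fold change -0.77), beside the same shares of all genes. Hnf4a went from 34.3 ± 13.6 to 4.27 ± 2.10 CPM (log2 fold change -2.99 ± 0.46, adjusted p = 0.00154). Nfat5, which drives osmolyte carriers such as Slc5a3, Slc6a6 and Slc6a12 under hypertonic stress, was the higher one, from 626 ± 32.4 to 1746 ± 79.4 CPM (1.48 ± 0.06, adjusted p = 8.12e-10). Of those 3 osmolyte carriers, Slc6a6 was called higher and the others were not called.

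The amino-acid stress response, through which ATF4 raises Slc7a11, Slc3a2 and Slc7a5 when amino acids run short, had 12 lower and 1 higher of 17 tested genes (median log2 fold change -0.33, against 25.0% lower and 23.7% higher of all tested genes). Atf4 went from 257 ± 15.8 to 214 ± 13.4 CPM (log2 fold change -0.26 ± 0.06), the serine synthesis enzyme Phgdh from 194 ± 5.42 to 114 ± 12.1 CPM (-0.77 ± 0.07) and Chac1 from 17.9 ± 3.96 to 5.24 ± 0.953 CPM (-1.77 ± 0.18). The higher gene was Nupr1 (0.63 ± 0.11).

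Carriers of the same substrates in other families had shares near those of all tested genes (25.0% lower and 23.7% higher). Of 19 tested amino-acid carriers outside the 9 families 6 were higher and 4 lower (median log2 fold change -0.01): Slc36a4, a proton-coupled carrier, rose from 76.8 ± 2.84 to 199 ± 4.73 CPM (1.37 ± 0.045) and Slc16a10, a carrier of aromatic amino acids, from 16.8 ± 1.95 to 35.0 ± 1.92 CPM (1.06 ± 0.09), whereas the tubule's glutamate carrier Slc1a1 fell from 3.91 ± 1.20 to 0.464 ± 0.283 CPM (-3.05 ± 0.38). Of 19 tested organic anion and phosphate carriers elsewhere 5 were higher and 6 lower (median 0.09). Slco5a1 rose from 7.78 ± 0.474 to 61.7 ± 7.23 CPM (2.98 ± 0.10), and Slco4c1, the basolateral organic anion carrier of the tubule, fell from 15 ± 2.23 to 4.72 ± 0.938 CPM (-1.67 ± 0.16). The housekeeping phosphate carriers Slc20a1 and Slc20a2 and the exporter Xpr1 were not called (log2 fold changes 0.17, 0.09 and 0.05). Among the 26 tested carriers that had been listed for a known role in the kidney, 11 were lower and 5 higher (median -0.54), but that list was drawn up with results of these data known.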

How the data were processed

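RNA was sequenced from 4 CHIR99021 and 4 DMSO kidneys. According to the submitters' processing notes and the study's methods, the authors aligned reads with HISAT2 2.0.5 to GRCm38 and featureCounts assigned them to genes. Whether strand was used in counting is not stated in these sources. The deposited count table holds raw counts per gene, and the deposited FPKM table holds values that the authors scaled by gene length and depth. Columns of the authors' own comparison (mean, fold change and p-values) were not used. Labels and methods name different RNA and library kits.

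Counts were filtered (count of at least 10 at the median library size, total of at least 15), scaled by TMM and tested with edgeR 4.0.16 quasi-likelihood (R 4.3.3), two-sided, with Benjamini-Hochberg adjustment over 16723 genes and thresholds of 0.05 and 1 log2 unit. CPM are TMM-scaled, values are mean ± SD, and fold changes are ± SE. Every adjusted p is edgeR's unless limma 3.58.1 (FPKM, log2 of count plus 1) or DESeq2 1.42.0 is named. Same-numbered samples deviated together (correlations 0.111 to 0.346, other pairs -0.180 to 0.0766), so the pair was also fitted as a block. The edgeR test without pairing was checked on simulated counts that had the same spread setting for every gene and no pair effect. That check does not cover carriers whose controls varied widely, nor the other tests. Counting intervals cover counting error only, and ratios to a floor leave out error in the DMSO counts.

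The carriers, lists and tests were chosen with earlier results of these data known. Named were carriers with a listed kidney role, up to 4 of the largest called changes and the most abundant member of each family, and up to 4 genes with the smallest p in each further list; other genes were named after their values were seen. Shared sequence and overlaps came from GENCODE M21, promoters from RefSeq. Some genes and a sequence motif are not reported here.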

Additional observations from a re-analysis of the deposited data

Results flagged for a closer look

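In 5 of the 72 groups of 4 samples examined, 1 library stood apart from the other 3 by Dixon's criterion at the 95% level, where chance gives about 1 in 20, or 3.6 groups. Slc7a11 in DMSO replicate 4 was at 28.9 CPM against 8.82 to 9.19 CPM in the other controls, and the macrophage markers of that library summed to 143 CPM against 525 to 611. Slc5a7 in CHIR99021 replicate 2 was at 1.14 CPM against 0 to 0.187, beside a neuron marker sum of 176 CPM against 27.7 to 41.7. The part of these markers was not tested. Slc5a8 in DMSO replicate 4 was at 2.55 CPM against 1.57 to 1.66. Slc6a13 in CHIR99021 replicate 4 was at 3.09 CPM against 1.47 to 1.72. Slc6a19 in CHIR99021 replicate 1 was at 2.31 CPM against 1.14 to 1.31.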

How the results depend on the processing

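Over 20 refits, 2 of them (without DMSO replicates 2 and 4, and without pair 3) chosen after seeing the data, 7 to 11 carriers were called higher and 16 to 31 lower, against 10 and 21. These counts are out of different numbers of genes. With no filter all 90 carriers were tested and 30 were lower, and DESeq2, with 31 lower, also took in carriers below the filter. The other refits tested 47 to 55 carriers and called 16 to 26 lower. Of all genes, 15637 to 30890 were fitted. Over all genes the same refits called 2437 to 4250 higher and 3492 to 6032 lower, against 3958 and 4180. Another choice made after seeing the data left out genes at the filter level in all samples of 1 group and none of the other. It gave 9 higher and 14 lower of 43 carriers, and 3844 and 3923 of 16349 genes. Leaving out 1 sample gave 7 to 10 higher and 19 to 26 lower, beside 3561 to 3812 and 3877 to 4064 of all genes. With the replicate block, which assumes that equal numbers mark 1 embryo, 11 of 51 were higher and 25 lower. That fit called 24.5% of all tested genes higher and 26.2% lower. Among the carriers the block added 6 calls, removed that of Slc13a3, and changed no other call. Of the 31 called carriers 21 kept the call throughout, and 9 of the 20 uncalled never gained one. Lower by more than 1 log2 unit were 15 carriers, 25 with no filter, where all 90 were tested, and 6 on FPKM plus 1. DESeq2 also gave 25, with some carriers below the filter tested and others left without an adjusted p. Higher by more than 1 log2 unit were 3, and 1 on FPKM plus 1. FPKM plus 1 and plus 0.1 shifted the median of all genes to -0.0998 and -0.134, and the share of all calls that were higher from 48.6% to 29.5% and 29.2%. The sign of Slc22a6 turned with limma-voom (0.022) and log2 of count plus 1 (0.34), and leaving out 1 sample gave -0.40 to 0.20. The sign of Slc7a7 turned with upper-quartile scaling (-0.023), limma-voom (-0.0093), FPKM plus 1 (-0.10), FPKM plus 0.1 (-0.13) and without DMSO replicates 2 and 4 (-0.054), and leaving out 1 sample gave -0.15 to 0.17. The causes were not tested. Depth limits the 39 untested carriers, none above 40 counts in a sample.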
